A study of Mus musculus with 11 samples.

Results

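The regions described are the whole of mouse chromosome 4 outside the Skint genes. In some tumours the ratio of tumour to liver DNA rises and falls there over short distances. Members were all genomic probes of the array placed on chromosome 4 of mouse build mm9, except the 85 probes named for a Skint gene. This gave 9891 probes of 170305 on chromosomes 1 to 19, X and Y, from position 3159538 to 155629081, with a median spacing of 11.0 kb. Of these, 6630 carried a gene name, for 1306 names in all. The choice used position and name, not measured values, but it was made with earlier results of these data known.

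The DNA came from 11 mammary tumours of mice carrying Pik3ca H1047R, an activating mutation of the catalytic subunit of phosphoinositide 3-kinase, on a mixed FVBN/Bl6 strain background. There was 1 group, and every tumour, labelled with Cy5, was set against liver of the same animal, labelled with Cy3, which carries the same strain background. The promoter or Cre that directs the mutant protein, the age of the animals and the share of tumour cells in each sample are not given in the sources used here. The samples are genomic DNA, so no RNA marker of the tissue could be checked. Each value is a log2 ratio of tumour over liver minus the median of its array, so 0 stands for the typical probe of that array and not for a known number of copies.

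Arrays that compare tumour with normal DNA show a gain where the tumour carries more copies of a region and a loss where it carries fewer. Many changes of direction packed into one stretch of a chromosome are known from amplified regions and from chromosomes that were broken and rejoined. The middle of mouse chromosome 4 holds Nfib, a transcription factor of the nuclear factor I family that is amplified in some lung and breast carcinomas, and the tumour suppressor Cdkn2a, whose products hold back the cell cycle and stabilise p53.

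Probes that flank 6 of the changes described below follow, with the mm9 position of each, to show where the ratio shifted. Each is the 60-base array probe as deposited, in lower case and 5′ to 3′, with no base marked. The files used here do not give its strand. Each pair brackets 1 change, and the boundary lies somewhere in the unprobed gap between its members.
tumour 3, start of the gained stretch, last probe before (E130308A19Rik), chr4:59761106-59761165: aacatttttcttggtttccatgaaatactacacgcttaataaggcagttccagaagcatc
tumour 3, start of the gained stretch, first probe after (E130308A19Rik), chr4:59766990-59767049: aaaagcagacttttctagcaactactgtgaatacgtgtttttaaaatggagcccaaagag
tumour 3, end of the gained stretch, last probe before (AF032968), chr4:88904036-88904095: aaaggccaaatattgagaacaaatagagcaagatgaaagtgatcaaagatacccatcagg
tumour 3, end of the gained stretch, first probe after (AF032968), chr4:88917436-88917495: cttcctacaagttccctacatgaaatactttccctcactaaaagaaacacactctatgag
tumour 8, gain to loss, last probe before (Agbl4), chr4:110253018-110253077: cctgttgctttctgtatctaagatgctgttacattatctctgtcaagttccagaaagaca
tumour 8, gain to loss, first probe after (Agbl4), chr4:110262051-110262110: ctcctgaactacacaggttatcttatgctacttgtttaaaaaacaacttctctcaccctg
tumour 2, start of the highest Nfib block, last probe before, chr4:81490139-81490198: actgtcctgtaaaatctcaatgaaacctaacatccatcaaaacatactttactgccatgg
tumour 2, start of the highest Nfib block, first probe after, chr4:81515412-81515471: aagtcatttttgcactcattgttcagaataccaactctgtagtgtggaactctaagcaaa
tumour 2, end of the highest Nfib block, last probe before, chr4:82181371-82181430: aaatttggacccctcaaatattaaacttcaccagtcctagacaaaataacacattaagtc
tumour 2, end of the highest Nfib block, first probe after, chr4:82206891-82206950: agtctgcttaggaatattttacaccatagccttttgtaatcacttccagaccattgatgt
tumour 1, start of the distal loss, last probe before (Fgr), chr4:132545302-132545361: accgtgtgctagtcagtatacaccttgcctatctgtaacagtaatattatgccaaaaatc
tumour 1, start of the distal loss, first probe after (Fgr), chr4:132555452-132555511: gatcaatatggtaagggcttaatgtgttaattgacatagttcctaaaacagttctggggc

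The narrowest of these gaps was 5.82 kb, at the start of the gained stretch of tumour 3, and the widest was 25.5 kb, at the end of the Nfib block of tumour 2. In tumour 3 the probes beside the start of the stretch read -0.23 and 0.43. In tumour 8 the probes on either side of the switch in Agbl4 read 0.30 and -0.46. Single probes were not decisive everywhere: the first probe past the Nfib block of tumour 2 still read 0.35, although the segment that it opened had a mean of 0.0011.

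The arrays differed in quality, and 2 of them bear on the results. The differences between neighbouring probes over all autosomes gave a noise SD between 0.13 (tumour 8) and 0.55 (tumour 9), and tumour 11 was second at 0.51. In tumour 2 the deposited log ratio was exactly 0 at 164 spots of the chromosome, and 163 of these probes had a median processed ratio of 0.70, so the calls and steps of tumour 2 are given below with them and, where their removal changed a count or a level, also without them. Tumour 11 ran against tumours 4, 5 and 9, with correlations over the probes of chromosome 4 of -0.63, -0.63 and -0.64, whereas those 3 arrays correlated with each other at 0.71 to 0.79. With the remaining tumours its correlations ran from -0.31 (tumour 10) to 0.40 (tumour 6), and the only other one above 0 was 0.14 (tumour 1). The direction of tumour 11 is therefore not settled, and its calls are given as labelled, with the opposite sign (turned) beside the counts that it changed. Tumours 4, 7, 9 and 11 shared slide 2.

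Each chromosome of each array was divided into segments of constant ratio. A segment of at least 10 probes was called a gain where its mean reached 0.2, and a loss at -0.2 or lower, and a step is a shift of at least 0.2 between neighbouring segments. Chromosome 4 had 24 gains, 26 losses and 88 steps over the 11 tumours. The number of steps depended on how segments were found: it was 162 and 43 with penalty factors of 1.5 and 3 in place of 2, and 54 without dim probes. Of the 88 steps, 58 had at least 10 probes on both sides and 51 fell between probes of the same gene. As 6630 of the 9891 probes carried a gene name, many neighbouring probes share one. Their share was not counted, so the 51 is only a description. The call nearest the threshold was a loss of -0.20 in tumour 8 (71 probes, 143013966 to 144416307), and the nearest segment below the threshold was a stretch of 0.198 in tumour 2 (29 probes, 46634125 to 46928948).

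**Figure D1:**
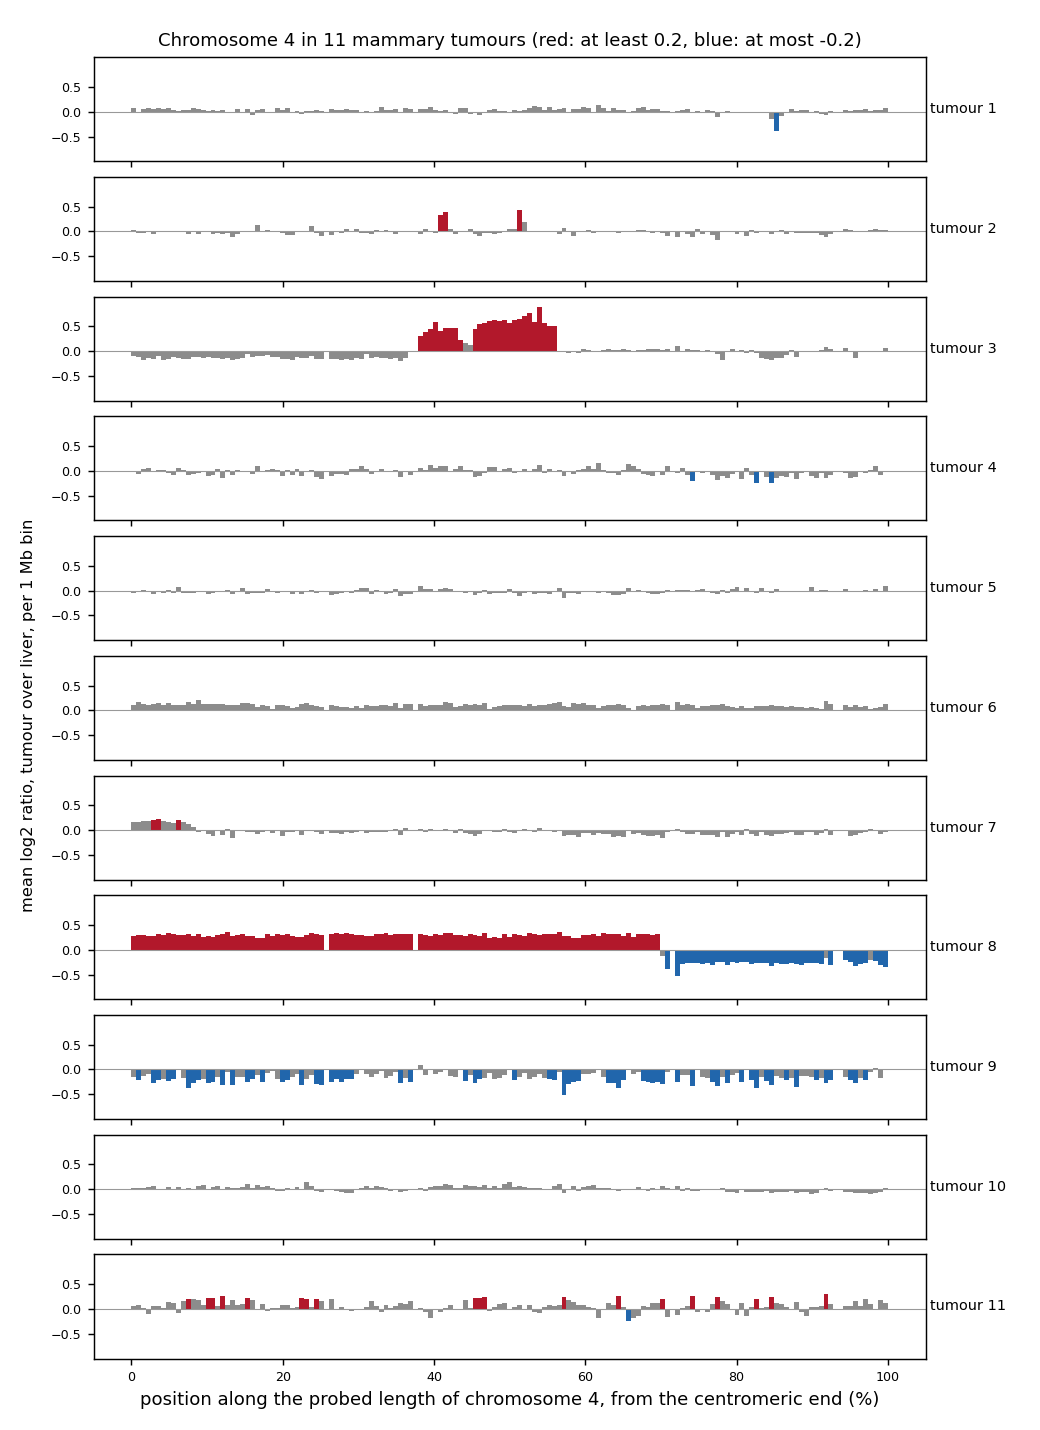
Mean log2 ratio of tumour over liver in 1 Mb bins with at least 20 probes (148 bins), 1 panel per tumour, against position in percent of the probed length from the centromeric end; red bars are at 0.2 or above and blue bars at -0.2 or below. Tumour 3 has 26 red bins in the middle of the chromosome, tumour 8 has 105 red bins followed by 40 blue ones, and tumours 5, 6 and 10 have none of either colour.

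Tumour 3 carried the longest run of gains at changing levels. From 59766990 to 88904095 (29.1 Mb, 1632 probes) the mean was 0.53 with an SD of 0.24 over probes, in 15 segments of which 12 were gains. The same stretch had means from -0.13 to 0.30 in the other 10 tumours, with a median of 0.03 and the highest value in tumour 8. All 10 steps of tumour 3 lay in this stretch or at its ends. The chromosome before it had a mean of -0.14 and the chromosome after it of -0.01. In tumour 3 gains held 15.4% of the probes of chromosome 4, and 11.6 percent of all autosomal probes. It had no loss on chromosome 4, against 0.461 percent of autosomal probes in a loss.

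The levels within the stretch rose and fell by position. It opened at 0.38 and rose to 0.58 over Tnc and Pappa, which encode tenascin C of the extracellular matrix and a protease that cleaves insulin-like growth factor binding proteins. It fell to 0.44 over Astn2, Tlr4 and Dbc1, where Tlr4 is the receptor for bacterial lipopolysaccharide. From 71235947 to 71645307 the ratio was -0.16 over 26 probes, close to the level before the stretch. A step of 0.61 within AK139736 then led to a gain of 0.45 over Tle1, a co-repressor of transcription.

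The next segment, 8.87 Mb long, stood at 0.61 over 452 probes and held Ptprd, a receptor tyrosine phosphatase, Tyrp1, an enzyme of melanin synthesis, and Nfib. Frem1, a basement membrane protein, and Psip1, a chromatin-bound coactivator, lay in a segment of 0.73 over 112 probes. The segment of 34 probes over Bnc2, a zinc finger protein, stood at 0.89. Its end lay between the last 2 probes of Bnc2: 26 probes of the gene averaged 0.89 and the last read 0.45. Cntln, a centrosomal protein, and Sh3gl2, an endocytic protein, lay in a segment of 0.51.

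A further step of 0.41 led to a segment of 0.93 over most of Adamtsl1, a secreted matrix protein. Of the 38 Adamtsl1 probes, 34 averaged 0.94 and the last 4 averaged 0.47. The ratio stayed at 0.56 over Rraga, a small GTPase that carries amino acid signals to mTOR, Rps6, a ribosomal protein, and most of Mllt3, a reader of histone acylation. A block of 7 probes without a gene name reached 1.03, which was the highest segment of the chromosome in this tumour, but held too few probes for a call.

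The gain of tumour 3 ended between Mtap and Cdkn2a. Mtap, an enzyme that salvages methionine, read 0.57 over 4 probes, and Cdkn2a read 0.01 over 2 probes. The ratio fell by 0.59 between 88904095 and 88917436, within AF032968. Cdkn2a begins at 88927265, so no gain or loss was called over it in this tumour. With another background correction (normexp) Cdkn2a read 0.20 in this tumour, and the gained stretch, at 0.77, still ended between the same 2 probes. Past this point no segment of tumour 3 was called, although its segments alternated between -0.18 and 0.17.

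**Figure D2:**
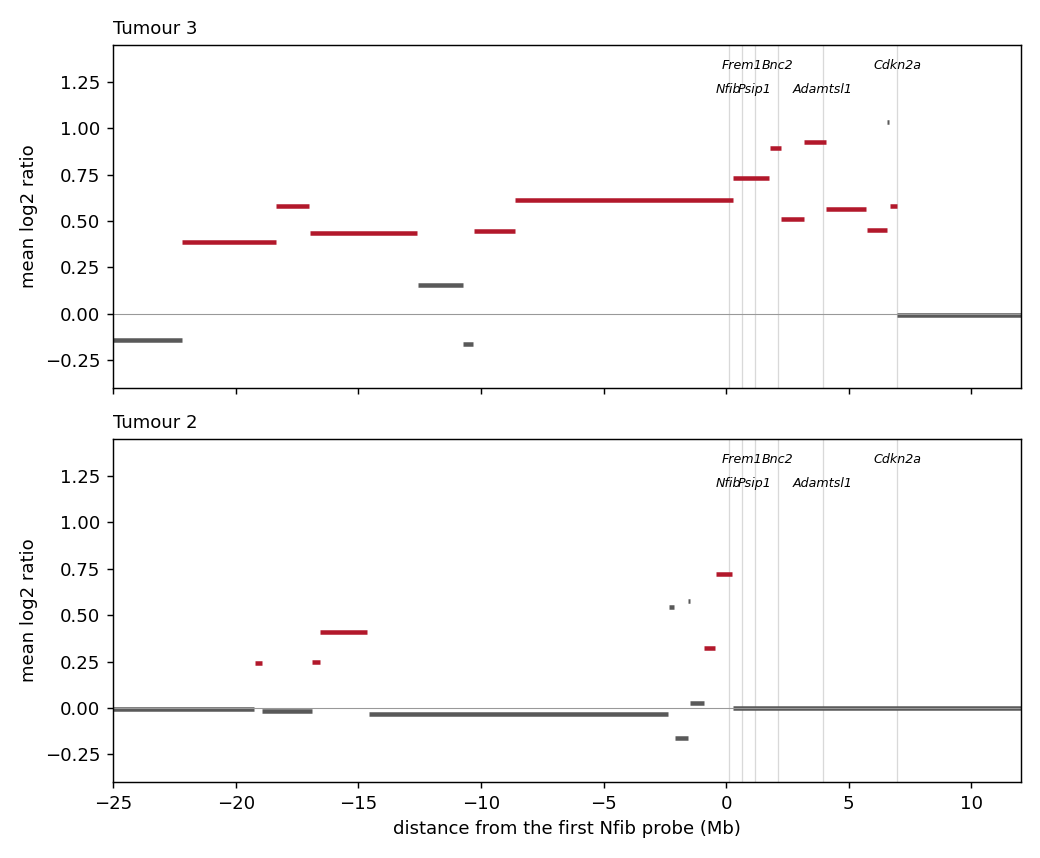
Segment means (log2 ratio) of tumour 3 and tumour 2 against distance in Mb from the first Nfib probe; red lines are gains, grey lines segments without a call, and vertical lines mark gene centres. In tumour 3 the level changes from 0.61 over Nfib to 0.93 over Adamtsl1 and returns to -0.0045 before Cdkn2a, while in tumour 2 a block of 0.72 over Nfib stands between a segment of 0.32 and one of 0.0011.

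Of the 5 genes that mark these regions, Nfib was the highest in tumour 2. Over its 22 probes the gene means of the 11 tumours ran from -0.12 to 0.77 with a median of 0.06. The ratio was 0.77 in tumour 2 (SD 0.14 over probes), 0.67 in tumour 3 and 0.23 in tumour 8, and the other 8 tumours were at 0.12 or lower. Nfib thus lay in a gain in 3 tumours. The mean over tumours was 0.15 with an SD of 0.30 (n = 11), and it did not differ from 0 in limma (Benjamini-Hochberg adjusted p = 0.251, over 9369 genes).

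The gain of tumour 2 over Nfib was short. It ran from 81515412 to 82181430 (0.67 Mb, 38 probes, mean 0.72) and held 3 names, Nfib, AK036601 and ENSMUST00000107242. A segment of 0.32 before it held the end of Mpdz, a scaffold protein of cell junctions. A single probe of the block had a deposited log ratio of 0, and the mean without it was 0.72. None of the 22 Nfib probes had such a value. The difference between Nfib and the 5 Mb around it was 0.73 in tumour 2, 0.0021 in tumour 3 and -0.07 in tumour 8.

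The other 4 marker genes were high in tumour 3. Frem1 (14 probes) ran from -0.12 to 0.80 over the tumours with a median of 0.10, and Psip1 (3 probes) from -0.22 to 0.79 with a median of 0.08. Bnc2 (27 probes) ran from -0.35 to 0.88 with a median of 0.02, and Adamtsl1 (38 probes) from -0.16 to 0.89 with a median of 0.07. The highest value of each gene was that of tumour 3, and the second highest that of tumour 8, at 0.39 for Frem1, 0.25 for Psip1, 0.28 for Bnc2 and 0.29 for Adamtsl1. With normexp the values of tumour 3 were 1.23 for Frem1, 1.20 for Psip1 and 1.35 for Adamtsl1. None of the 4 means over tumours passed the limma test, with adjusted p-values of 0.225, 0.230, 0.560 and 0.317 in the same order.

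**Figure D3:**
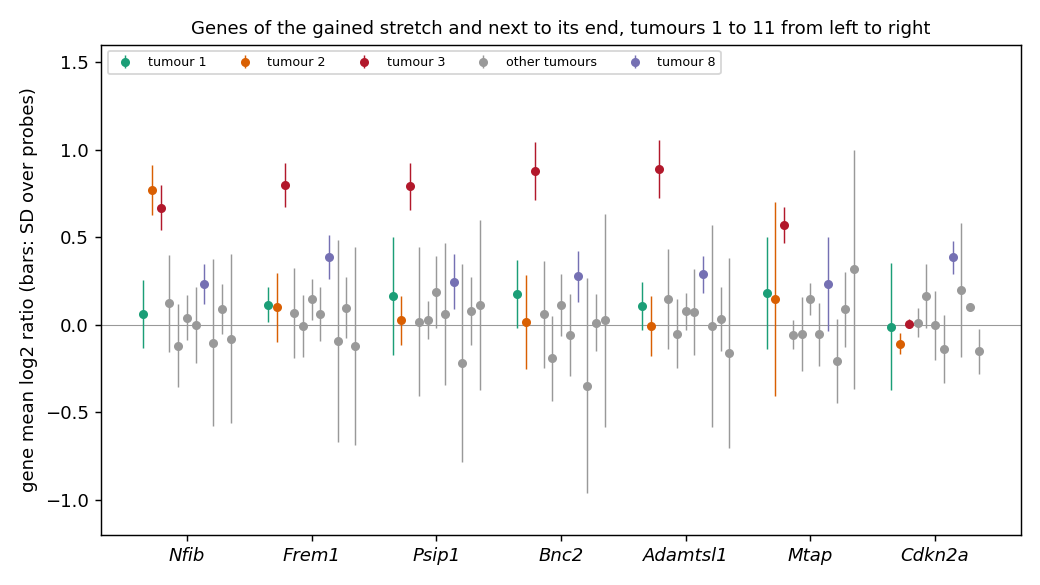
Mean log2 ratio of 7 genes in each of the 11 tumours, which run from left to right within each gene; bars are the SD over the probes of the gene, not over animals. Tumour 3 stands at 0.67 to 0.89 for the 5 marker genes and at 0.01 for Cdkn2a, and tumour 2 stands apart at Nfib, at 0.77.

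In tumour 1 a gain lay inside Bnc2. Its 16 probes from 83941256 to 84114072 (0.17 Mb) averaged 0.30, whereas the 2 Bnc2 probes before them averaged -0.07 and the 9 after them 0.01. Bnc2 as a whole therefore read 0.18 in this tumour. The gain lay within the segment of 0.89 that tumour 3 had over the same gene. Gains held 0.162% of the chromosome's probes in tumour 1, against 6.09 percent of autosomal probes.

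Tumour 2 also had gains near Tlr4. The segments from 65060769 to 65380704 and from 65386384 to 67309217 averaged 0.25 over 34 probes and 0.41 over 108 probes. The first began within Astn2, a membrane protein of neurons, of which 2 probes averaged -0.01, 34 averaged 0.25 and 67 averaged 0.40. No probe of either segment had a deposited log ratio of 0. Gains held 2.34% of the chromosome's probes in tumour 2, against 21 percent of all autosomal probes, and without the probes of deposited log ratio 0 these shares were 2.70% and 17.5%.

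Of the 28 steps of tumour 2, 14 had at least 10 probes on both sides. The penalty for a new segment scaled with the square of the noise SD, 0.16 in tumour 2, whereas its segment of 2036 probes had an SD of 0.29. In tumour 3 the noise SD was 0.15 and the segment of most probes had an SD of 0.18, and in tumour 8 these were 0.13 and 0.14. Of the spots of chromosome 4, 8.29% were dim in tumour 2, that is, not well above background in red or green. How far these traits bear on its steps was not tested. Without the probes of deposited log ratio 0 there were 16 steps, 7 gains and no loss, in place of 28 steps, 5 gains and 1 loss. The call that disappeared, a loss, ran from 121093815 to 121767386 (19 probes, mean -0.26) and held 0.192% of the chromosome's probes, against 1.03 percent of autosomal probes. A short rise at Trp73, a relative of p53, rested on 6 probes with a mean of 0.57, of which 3 had a deposited log ratio of 0 and the others averaged 0.66. With all such probes of the array left out, the site fell into a longer segment (153480306 to 153621167, 12 probes) that averaged 0.31 and passed as a gain.

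In tumour 8 the chromosome was divided into a gained and a lost part. From 3159538 to 110253077 (107.1 Mb, 6416 probes) the mean was 0.30, and from 110262051 to the last probe (45.4 Mb, 3475 probes) it was -0.29. In the other 10 tumours the first part had means from -0.17 to 0.10 and the second from -0.18 to 0.09. Gains held 64.9% of the probes of chromosome 4 in this tumour against 14.6 percent of autosomal probes, and losses held 34.7% against 20.4 percent. With normexp the mean of the gained part was 0.47.

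At the change from gain to loss the ratio fell by 0.61 within Agbl4, a carboxypeptidase that trims glutamates from tubulin. Its 21 probes before the change averaged 0.31 and its 104 probes after it -0.31. The gained part was nearly level, with the lowest segment, at 0.23, from 75580606 to 77956010 over 181 probes that include Ptprd. The lost part was uneven: it held 20 segments, 14 of them losses, and all 16 steps of tumour 8 lay at the change in Agbl4 or beyond it.

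The deepest ratios of tumour 8 lay in the stretch from which the Skint probes were left out. The segment of 13 probes from 112036545 to 112460956 averaged -0.70, and segments of 8 probes on either side averaged -1.10 and -1.17. In the same stretch tumour 11 had a loss of -0.46, tumour 7 a gain of 0.29 and tumour 6 a gain of 0.22. The segments beside the tumour 6 gain stood at 0.10 and 0.12, so neither of its ends was a step. Of the 32 probes of the tumour 7 call, 11 had a deposited log ratio of 0, and its mean without them was 0.13. These gains held 0.324% of the chromosome's probes in tumour 7 (5.89 percent of autosomal probes, and 25.7 percent in losses) and 0.516% in tumour 6 (10.8 percent, and 0.609 percent in losses). Neither tumour had a loss on chromosome 4.

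**Figure D4:**
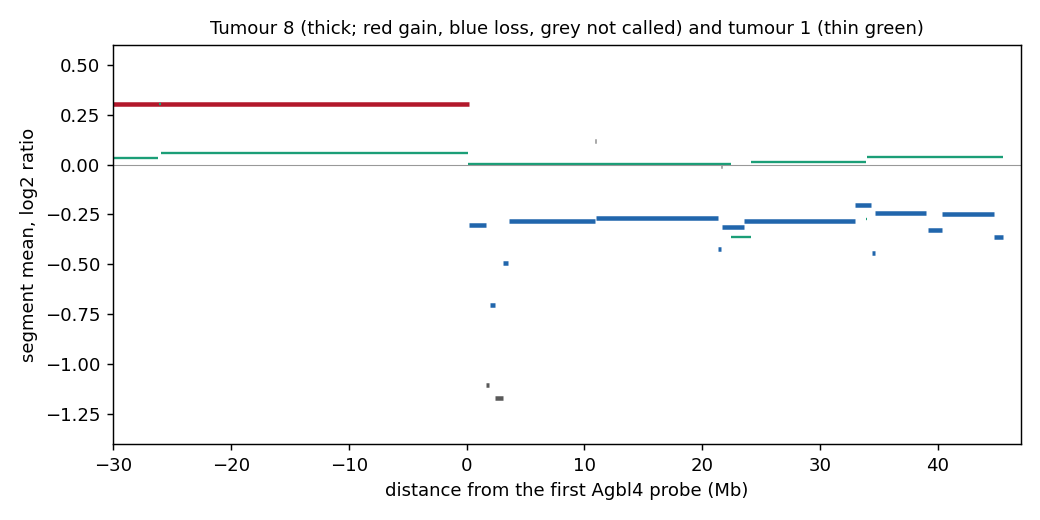
Segment means (log2 ratio) of tumour 8 (thick lines, red for gains, blue for losses, grey for no call) and of tumour 1 (thin green lines) against distance in Mb from the first Agbl4 probe. Tumour 8 passes from 0.30 to -0.30 within Agbl4, and the loss of tumour 1 at -0.36 lies inside the lost part of tumour 8.

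Tumour 1 had a loss in the distal part of the chromosome. It ran from 132555452 to 134220709 (1.67 Mb, 169 probes, 44 gene names) at a mean of -0.36 with an SD of 0.20 over probes. Its start lay within Fgr, a Src-family tyrosine kinase, where 2 probes averaged -0.07 and the third read -0.55. Its end lay within Man1c1, an enzyme of N-glycan trimming, where 12 probes averaged -0.32 and the last 3 averaged 0.02. A second loss of -0.27 covered 11 probes over Pramef12 and Aadacl3. Losses held 1.82% of the chromosome's probes in tumour 1 against 20.2 percent of autosomal probes.

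Arid1a, a subunit of the SWI/SNF chromatin remodelling complex and a tumour suppressor, lay in the loss of tumour 1. Over its 9 probes the tumours ran from -0.38 to 0.07 with a median of -0.03. Tumour 8 was lowest at -0.38 and tumour 1 followed at -0.33, and the other 9 tumours were at -0.09 or higher. Stmn1, a protein that destabilises microtubules, was measured by 1 probe and read -0.37 in tumour 1 and -0.41 in tumour 8.

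Tumour 4 had 6 losses and no gain. They lay at B4galt1 to Kif24 (-0.30), Akap2 (-0.51), before and in Alg6 (-0.45), Nasp to Tesk2 (-0.59), around Lck and Hdac1 (-0.26) and from Epb4.1 to beyond Fgr (-0.26). Losses held 3.63% of the chromosome's probes in tumour 4 and 2.74 percent of autosomal probes, and its gains, none of them on this chromosome, 4.92 percent of autosomal probes. The ratios of tumour 4 correlated over the chromosome with those of tumours 5 and 9, at 0.71 and 0.79, although neither of these had a call on it. How far the losses of tumour 4 follow this shared pattern was not tested. In tumour 11, as labelled, Ipp to Tesk2 was gained at 0.69, opposite to tumour 4. The losses of tumour 11 lay at Zfp618 to Tnc (-0.26), Dab1 (-0.36) and the stretch of the Skint genes (-0.46). In the same order, the segments of tumour 4 over these places stood at 0.09, 0.18 and 0.10, without a call. How far the calls of tumour 11 mirror the pattern shared by tumours 4, 5 and 9 was not tested. With the opposite sign tumour 11 would have 3 gains and 1 loss. Losses held 2.09% of the probes in tumour 11 against 0.384 percent of autosomal probes, and gains 0.283% against 0.897 percent.

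Few changes recurred. As labelled, no gene name lay in gains of more than 3 tumours, and 11 of 1306 names (0.842%) reached 3, against 12.3 percent of autosomal names. Among them were Nfib, Astn2 and Col27a1, a fibrillar collagen, all in tumours 2, 3 and 8, and Bnc2, in tumours 1, 3 and 8. With tumour 11 turned, 24 names (1.84%, against 12.3% of autosomal names) reached 3, and 4 of them reached 4 tumours, Col27a1, Ambp, AK031219 and ENSMUST00000118337. Losses of at least 2 tumours held 120 names (9.19%), against 26.9 percent of autosomal names. The stretch lost in most tumours, from 132555452 to 132881337 over 33 probes, was lost in tumours 1, 4 and 8. The 1 Mb bin from 132000001 read -0.24 in tumour 4 and, without a call, -0.05 in tumour 5 and -0.30 in tumour 9. In tumour 11, as labelled, this bin read 0.23. Whether the tumour 4 call follows a probe pattern shared with tumours 5 and 9 was not tested. With tumour 11 turned, the stretch from 116298960 to 116427593, over 14 probes that include Prdx1 and Akr1a4, was also lost in 3 tumours, 4, 8 and 11. The 1 Mb bin from 116000001 read -0.21 in tumour 4 and, without a call, -0.03 in tumour 5 and -0.33 in tumour 9. As labelled, tumour 11 read 0.26 in it. Whether this recurrence follows the same probe pattern was not tested. With tumour 11 turned, 122 names were lost in at least 2 tumours.

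Some boundaries were shared by pairs of tumours, and how many such pairs other chromosomes hold was not counted. In 6 pairs a step of one tumour lay within 20 kb of a step of another, and 3 of these pairs moved in opposite directions as labelled, or 2 with tumour 11 turned. Tumours 2 and 11 both changed within Zfp618, upward by 0.25 in tumour 2 and downward in tumour 11 as labelled, by -0.34. Tumours 4 and 10 both rose by 0.47 after a low segment at Akap2, a protein kinase A anchor. In tumour 4 this segment was called a loss, whereas in tumour 10 it held 5 probes, too few for a call. Pairs among tumours 7, 8 and 11 met at the start of the stretch of the Skint genes.

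The spacing of steps differed between tumours. The distance between neighbouring steps had a median of 0.94 Mb in tumour 3 (9 distances, 5 under 1 Mb), 0.69 Mb in tumour 2 (27 distances, 15 under 1 Mb) and 0.44 Mb in tumour 8 (15 distances, 9 under 1 Mb). Short segments enter these distances: 8 of 10 steps in tumour 3, 14 of 28 in tumour 2 and 6 of 16 in tumour 8 had at least 10 probes on both sides. Without the probes of deposited log ratio 0 the median in tumour 2 was 2.02 Mb (15 distances, 7 under 1 Mb). In tumours 4, 1 and 11 the medians were 1.57, 1.68 and 1.69 Mb, with 5 of 14, 2 of 5 and 1 of 7 distances under 1 Mb. The 2 distances of tumour 7 had a median of 48.8 Mb, and the single distance of tumour 10 was 0.038 Mb. Tumours 5, 6 and 9 had no step on the chromosome. Tumours 5, 9 and 10 had no call on it either, and their losses elsewhere held 2.26, 0.0062 and 0.0112 percent of autosomal probes, with 0.0174 percent in gains in tumour 5 and none in the other 2.

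Steps were counted per 10 Mb and set against all 20 chromosomes in the same tumour. Chromosome 4 had 88 steps, the second largest count after chromosome 6 with 125. Its density exceeded that of the whole genome in 7 of 11 tumours, from 0.29 fewer in tumour 6 to 0.97 more in tumour 2, with a median of 0.09 more. The mean excess was 0.212 steps per 10 Mb with an SD of 0.355 (n = 11), which did not pass the exact two-sided sign-flip permutation test (p = 0.0684, adjusted over 20 chromosomes p = 0.234). In tumour 2 the density was 1.84 against 0.86 over the genome, and 1.05 against 0.77 without the probes of deposited log ratio 0. Without tumour 2 the mean excess was 0.135, and with such probes left out of every array it was 0.127. The smallest p that this design allows is 0.000977.

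Across tumours the mean of the chromosome lay close to 0. It ran from -0.17 in tumour 9 to 0.10 in tumour 6 with a median of -0.0034, and 5 of 11 tumours lay above 0, or 4 with tumour 11 turned. The mean over tumours was 0.0034 with an SD of 0.076, and the exact two-sided sign-flip permutation test gave p = 0.896 before and after adjustment over 20 chromosomes. In tumour 9 chromosome 4 was the lowest of the 20 chromosomes, but it formed 1 segment without a call on an array with a noise SD of 0.55. In tumour 7 the first 734 probes, up to 15648909, averaged 0.17 and were not called.

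The part of the chromosome beyond the midpoint of the probed length was compared with the part before it. The distal part was lower in 9 of 11 tumours, or in 8 with tumour 11 turned. The differences ranged between -0.36 (tumour 8) and 0.07 (tumour 3), around a median of -0.01. The mean difference was -0.043 with an SD of 0.111 (n = 11, exact two-sided sign-flip permutation test, p = 0.181, adjusted p = 0.622). Without tumour 8 the mean difference was -0.011. Of the tumours with a lower distal part, 8 differed by less than 0.07.

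**Figure D5:**
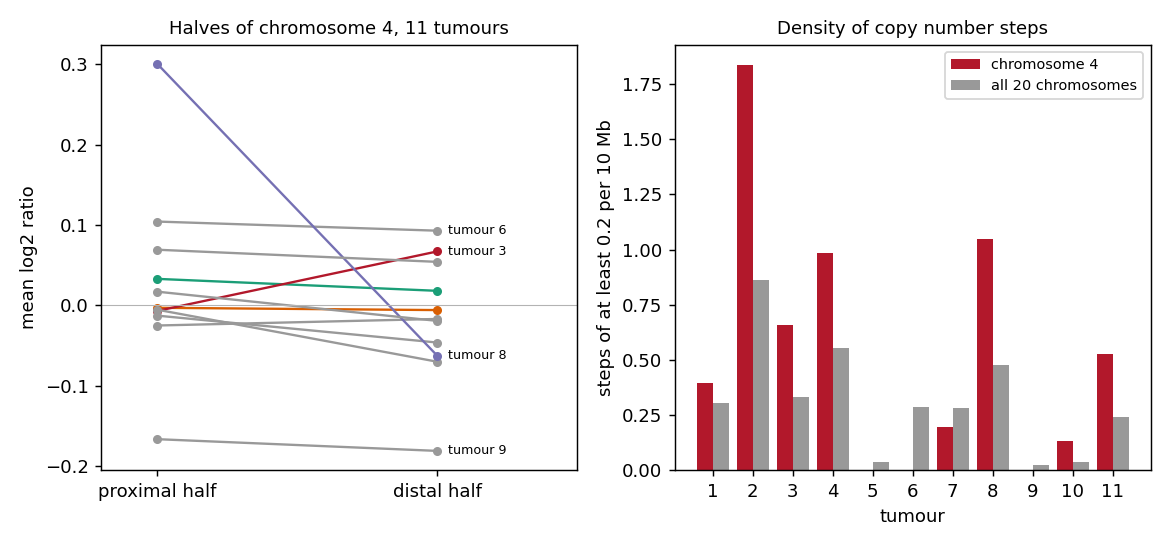
Left, the mean log2 ratio of chromosome 4 before and after the midpoint of its probed length, with 1 line per tumour; right, steps of at least 0.2 per 10 Mb on chromosome 4 (red) and over all 20 chromosomes (grey) in each tumour. Tumour 8 falls from 0.30 to -0.06, and tumour 2 has the highest step density with all probes, 1.84 on chromosome 4 against 0.86 over all chromosomes. Without the probes of deposited log ratio 0, which is not drawn, tumour 2 has 1.05 against 0.77.

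By gene, limma called 2 of 583 tested genes of the chromosome higher in tumour than in liver and 3 lower, the thresholds being 0.05 for the adjusted p and 0.1 for the size of the mean. These were 0.343% and 0.515%, against 4.6 and 2.29 percent of all 9369 genes. At an unadjusted p below 0.05 there were 59 genes (10.1%), against 23.0% of all genes. The median of the gene means was -0.0015 on chromosome 4 and -0.01 over all genes.

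Ssu72, a phosphatase of RNA polymerase II, ran from -0.13 in tumour 8 to 0.57 in tumour 9 with a median of 0.23, and lay above 0 in 10 of 11 tumours (mean 0.22, SE 0.049, limma adjusted p = 0.0211). No gain was called over Ssu72 in any tumour, and in tumour 8 it lay in a loss of -0.36. Its highest value was that of the array with the largest noise SD, 0.55. Ddx58, the RNA sensor RIG-I, ran from -0.02 to 0.32 with a median of 0.15 (mean 0.13, SE 0.038, limma adjusted p = 0.0488). Each of the 2 genes was measured by 3 probes, so both calls rest on few probes. With 1 tumour left out in turn, limma called Ssu72 in 9 of 11 cases (adjusted p 0.00656 to 0.0545, not without tumour 3 or 6) and Ddx58 in 1 of 11 (0.0461 to 0.103), without tumour 11. With mode centring Ssu72 alone was called.

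The lower genes were Rps6ka1, a kinase downstream of ERK, Dhdds, an enzyme of dolichol synthesis, and Ctnnbip1, an inhibitor of beta-catenin. Rps6ka1 ran from -0.39 in tumour 1 to 0.01 in tumour 5 (mean -0.17, limma adjusted p = 0.0348). Dhdds ran from -0.67 in tumour 1 to 0.13 in tumour 11 (mean -0.22, limma adjusted p = 0.0350), and Ctnnbip1 from -0.44 in tumour 9 to 0.11 in tumour 1 (mean -0.19, limma adjusted p = 0.0433). Rps6ka1 and Dhdds lie within the loss of tumour 1, and all 3 genes lie within losses of tumour 8. Tumour 9, the lowest for Ctnnbip1, had no call on the chromosome. With 1 tumour left out in turn, limma called Rps6ka1 in 3, Dhdds in 3 and Ctnnbip1 in 2 of 11 cases, with adjusted p-values up to 0.0770, 0.0811 and 0.102, and none of the 3 with mode centring.

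The gene counts turned on tumour 11. Without it limma called 19 genes of chromosome 4 higher and 28 lower (3.26% and 4.80%, against 8.92 and 8.39 percent of all genes), and these included all 5 genes named above. With its ratios turned the counts were 21 and 38 (3.60% and 6.52%, against 8.92 and 9.21 percent), and these included 1 of the 2 higher and 2 of the 3 lower genes.

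Of 34 genes from Ptprd to Tusc1 around Nfib, 28 were found on the array and 23 could be tested. None passed the limma test in either direction, and 3 had an unadjusted p below 0.05, a smaller share than the 23.0% of all genes. The median of their means was 0.10 against -0.01 over all genes. In tumour 3 a gain held 26 of the 28, the exceptions being Cdkn2a and Elavl2, an RNA-binding protein of neurons. Gains held 15.4% of the chromosome's probes in tumour 3, and the share of its gene names was not counted. In tumour 8, where 629 of the 1306 gene names of the chromosome (48.2%) lay in a gain and 673 (51.5%) in a loss, all 28 lay in a gain, Cdkn2a included, at 0.39 over 2 probes. The list was drawn up with the gains of tumours 2 and 3 known, so these counts are a description.

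Of 33 tumour suppressors, 30 were on the array, 20 were tested and none passed, with 1 at an unadjusted p below 0.05 (23.0% of all genes) and a median of 0.0050. In tumour 8, 14 lay in a gain and 16 in a loss, close to the shares of all names of the chromosome, 48.2% and 51.5%. In tumour 3, where gains held 15.4% of the chromosome's probes, a gain held 3, Ptprd, Mtap and Dbc1. In tumour 1, where losses held 1.82% of the probes, a loss held Arid1a. The highest mean was 0.28 for Klf4, a transcription factor measured by 1 probe, and the lowest -0.18 for Fancg, a DNA repair gene also measured by 1 probe.

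Of 33 oncogenes and genes of the PI3K pathway, 28 were on the array and 16 were tested, of which 1, Rps6ka1, passed as lower. Of the 16, 5 had an unadjusted p below 0.05, against 23.0% of all genes, and the median of their means was -0.02. In tumour 8, 10 lay in a gain and 18 in a loss, where the chromosome's names lay 48.2% in a gain and 51.5% in a loss. Among those in a loss were Mtor, the kinase that integrates growth signals (-0.14), and 2 genes of PI3K subunits, Pik3cd (-0.24) and Pik3r3 (-0.32). The lowest mean was -0.25 for Tal1, a transcription factor of blood cells measured by 1 probe, and the highest 0.19 for Rragc, an mTOR-regulating GTPase also measured by 1 probe.

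Of 12 receptor and Src-family tyrosine kinases, 11 were on the array, 10 were tested and none passed the limma test, with 2 at an unadjusted p below 0.05 (23.0% of all genes). In tumour 8 a gain held 5 and a loss 6, near the 48.2% and 51.5% of all names. Lck, a Src-family kinase of T cells, ran from -0.61 in tumour 9 to 0.91 in tumour 11 with a median of -0.17. With tumour 11 turned its value there was -0.91, the lowest, and the highest of the 11 was 0.13. Of 12 entries for families that vary between mouse strains, 8 genes were on the array, each with fewer than 3 probes, and none could be tested.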

How the data were processed

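DNA of 11 tumours and matched livers was hybridised to 2-colour Agilent arrays, 1 per animal, on 3 slides. Intensities were deposited by the authors as processed signals, background-subtracted and dye-normalized by Agilent Feature Extraction, version 10.5.1.1 or, for tumours 4, 7, 9 and 11, 11.0.1.1 per the file headers. The deposited log10 ratio marked spots set to 0. The authors deposited a log2 value table, made with Partek per the submitters' processing notes, which served as an alternative. Probe positions and names are those of the array files (mm9).

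Here, log2 of red over green was centred on each array's median. Segments were found by exact optimal partitioning (penalty factor 2, at least 5 probes, after limiting outlying probes to 4 noise SD from a running median of 11 probes). The limma test (3.58.1, R 4.3.3) took genes of 3 or more probes. Sign-flip tests were exact. The normexp alternative (offset 50) used median spot signals. Python 3.11.15 was used otherwise. Methods were tested on simulated data.

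Named genes were the 5 markers, listed genes in calls of at most 20 Mb or extreme in their list, leading genes of focal segments, genes split by steps of at least 0.4, and the highest and lowest genes by limma. Gene functions are background. Members and lists were chosen with earlier results of these data known. The number of arrays limits the precision, and the labels call the tumours separate animals.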

Additional observations from a re-analysis of the deposited data

How the results depend on the processing

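Each ratio sets a tumour against its own liver, so the tests against 0 compare within animals. With 1 group, no further pairing applied. The mean of chromosome 4 changed sign, without passing the test under any setting, to -0.0102 with centring on the mode and to -0.0077 with tumour 11 turned, and leaving out 1 tumour gave -0.0061 to 0.0212. The distal difference kept its sign in 8 alternatives and, leaving out 1 tumour, ran from -0.0548 to -0.0111 (the latter without tumour 8). The excess of steps stayed above 0 in 11 alternatives (0.0998 to 0.268) and ran from 0.135 to 0.262 when 1 tumour was left out. Genes called higher, 2 in the report, numbered 13 with normexp, 1 with mode centring, 4 without dim probes, 21 with tumour 11 turned, 11 with the slide as a random block and 16 with genes of at least 1 probe, and 0 to 19 when 1 tumour was left out (0 without tumour 3 or 6, 19 without tumour 11). Genes called lower, 3 in the report, numbered 7, 0, 0, 38, 17 and 12 in the same order, and 0 to 28 when 1 tumour was left out (0 without tumour 2, 3, 4, 6 or 7, 28 without tumour 11). Gains, 24 in the report, numbered 18 to 34 over 14 alternatives and 12 to 24 when 1 tumour was left out (12 without tumour 3). Losses, 26 in the report, numbered 12 with normexp, 11 without dim probes, 44 and 10 with penalty factors 1.5 and 3 and 15 at a threshold of 0.3, and 12 to 26 when 1 tumour was left out (12 without tumour 8). Single values moved by more than their spread only with normexp: in tumour 3 to 0.98 (Nfib), 1.23 (Frem1), 1.20 (Psip1), 1.16 (Bnc2), 1.35 (Adamtsl1), 0.20 (Cdkn2a) and 0.77 (gained stretch), in tumour 2 to 0.97 (Nfib) and in tumour 8 to 0.47 (gained part). Steps, 88 in the report, numbered 43 to 162 over 11 alternatives. The cause of these shifts was not tested. Omitting probes of deposited log ratio 0, and turning tumour 11 in recurrence, shared steps and tallies, were chosen after seeing the data. Noise limits short calls in tumours 9 and 11.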
